A study of Homo sapiens with 15 samples.

Results

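The messenger RNA levels of 8 genes were described in A673 cells, a line derived from an Ewing sarcoma. The 8 genes are the peptide genes *NPY*, *CCK*, *GRP*, *APELA*, *CALCA* and *CALCB* and the receptor genes *NPY1R* and *NPY5R*. All 8 were matched among the 57820 gene identifiers of the count table, and all 8 passed the filter on low counts, which kept 28793 genes with a mean of at least 1 count per library. The genes were listed with earlier results of these same libraries known. Their levels, fold changes and calls across the conditions are therefore given as a description, with no test.

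RNA-seq was carried out on 15 libraries in 5 conditions, with 3 libraries in each. In every condition the cells received an shRNA on day 1 and a second retrovirus on day 5 and were selected with 2 µg/mL puromycin, joined later by 400 µg/mL hygromycin, up to day 16. iLuc cells carried an shRNA against luciferase and an empty vector, and so kept their own EWS/FLI, here called endo-EF. iEF cells carried an empty vector after depletion of EWS/FLI by an shRNA. The other 3 conditions carried the EWS/FLI shRNA and a rescue cDNA in the retroviral vector pMSCV-hygro: wildtype EWS/FLI (WT-EF), a form lacking the EWS domain (Δ22), or a form in which many, but not all, tyrosines of the EWS domain are changed to alanines (DAF). The rescue proteins were thus expressed from a viral vector and not from the endogenous locus, and all cells came from 1 line.

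Neuropeptides are made as longer precursors, cut by prohormone convertases inside secretory granules, trimmed and amidated, and released to act on receptors coupled to G proteins. NPY, neuropeptide Y, is the main peptide cotransmitter of sympathetic neurons, and Y1 and Y5, the products of *NPY1R* and *NPY5R*, are among its receptors. CCK is the gut and brain peptide cholecystokinin, GRP is gastrin-releasing peptide, and CALCA and CALCB encode the calcitonin gene-related peptides, with calcitonin itself as an alternative product of *CALCA*. APELA is a short secreted ligand of the apelin receptor. Ewing sarcomas are known for peptides of this kind, with NPY and its receptors and CCK among the best described. The tumors are driven by EWS/FLI, a fusion of the activating EWS domain with the DNA-binding domain of the ETS factor FLI, which binds GGAA motifs and, in particular, tandem runs of GGAA known as microsatellites.

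Depth ran from 28659475 to 41859880 counts per library. *FLI1*, whose 3′ part is in the fusion and whose counts therefore include both endo-EF and any rescue cDNA, stood at 48.0, 47.8 and 52.4 CPM (counts scaled to a common library size) in iLuc libraries and at 12.9, 15.5 and 15.3 CPM in iEF libraries. It was higher in iLuc than in iEF cells by 1.77 on the log2 scale (SE 0.10, edgeR adjusted p = 7.93e-09). *FLI1* was 16.0 to 18.7 CPM in WT-EF, 22.1 to 27.3 CPM in DAF and 24.4 to 36.2 CPM in Δ22 libraries. These counts do not separate construct RNA from remaining endo-EF RNA. *FLI1* was thus not at matched levels, being lower in every WT-EF library than in any DAF or Δ22 library. Its differences from iEF were 0.27 (adjusted p = 0.0538), 0.74 (adjusted p = 0.000335) and 1.09 (adjusted p = 0.000446), and over the alternative fits the adjusted p for WT-EF ran from 0.0105 to 0.207, while that for Δ22 rose to 0.134 when replicate 2 of every condition was left out. Of the Ewing sarcoma markers, *CCND1*, *STEAP1*, *PRKCB*, *NR0B1* and *NKX2-2* were read in every library, whereas *CD99* had at most 3 counts. The reason for the low *CD99* counts was not tested, so they are not read as a lack of its expression. Markers of other cell types were low but not all were flat. Of the epithelial markers, *KRT5* and *CDH1* had at most 3 counts, whereas *EPCAM* had 21 to 33 counts in iLuc, 12 or 13 in WT-EF, 5 to 8 in DAF, 3 to 8 in Δ22 and 3 to 5 in iEF libraries. Of the leukocyte markers, *CD3E* had at most 1 count, while *CD14* had at most 4 counts in iLuc and 37 to 50 in iEF libraries. *CD14* had 7 to 15 counts in WT-EF, 42 to 110 in DAF and 22 to 71 in Δ22 libraries. Summed levels ran from 0.0788 to 1.07 CPM for the epithelial, 0.397 to 4.69 CPM for the leukocyte and 0.196 to 0.858 CPM for the endothelial list, and their part in the results was not tested. Of the sympathetic and neuroendocrine markers, *SYP*, the gene of the synaptic vesicle protein synaptophysin, was at 33.1 to 37.2 CPM in iLuc, 14.7 to 27.9 in WT-EF, 6.12 to 12.9 in DAF, 4.16 to 8.81 in Δ22 and 3.64 to 4.10 CPM in iEF libraries. It was thus higher in iLuc and WT-EF than in iEF libraries, as were the means of the 8 genes. Not all of the 8 shared its full order of conditions, and its part in the results was not tested. The noradrenergic enzyme gene *DBH* had at most 4 counts and *INSM1* at most 6, while *TH*, tyrosine hydroxylase, had at most 1 count in iLuc and 12 to 36 counts in iEF libraries. In bulk RNA, fewer cells of a type and less RNA per cell cannot be told apart.

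The genes lie on chromosomes 3, 4, 7, 11 and 18 (build GRCh37, GENCODE gene models). *NPY* is on the plus strand at chr7:24323807-24331481, *CCK* on the minus strand at chr3:42299317-42307677 and *GRP* on the plus strand at chr18:56887390-56898006. *CALCA* (minus strand, chr11:14988168-14993900) and *CALCB* (plus strand, chr11:14926543-15103888) are neighbours, and the annotated span of *CALCB* covers that of *CALCA* on the opposite strand. *NPY1R* (minus strand, chr4:164245114-164265984) and *NPY5R* (plus strand, chr4:164265044-164273086) lie head to head and overlap at their 5′ ends. *APELA* is on the plus strand of the same chromosome, at chr4:165798330-165820117. Whether reads were counted by strand is not given in the sources used here, so reads from overlapping exons of such a pair cannot be told apart.

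Since EWS/FLI binds runs of GGAA, the nearest run of at least 4 perfect GGAA repeats, on either strand, was found for the start site of each gene in the reference genome. The repeat length in A673 cells was not measured here and may differ. The 4 runs printed here were chosen because they include those nearest to their genes and the run that *NPY1R* and *NPY5R* share, with the GGAA repeats in capitals and 40 bases of flank on each side in lower case.
CCK, 11 repeats, minus strand, chr3:42307979-42308102: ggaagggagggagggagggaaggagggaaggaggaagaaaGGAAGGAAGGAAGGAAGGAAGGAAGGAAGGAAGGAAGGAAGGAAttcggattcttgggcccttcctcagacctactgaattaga
APELA, 14 repeats, plus strand, chr4:165794458-165794593: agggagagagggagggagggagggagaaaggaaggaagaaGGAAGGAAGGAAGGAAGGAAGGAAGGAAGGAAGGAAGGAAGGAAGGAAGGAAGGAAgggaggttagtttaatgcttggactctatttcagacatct
GRP, 7 repeats, minus strand, chr18:56912835-56912942: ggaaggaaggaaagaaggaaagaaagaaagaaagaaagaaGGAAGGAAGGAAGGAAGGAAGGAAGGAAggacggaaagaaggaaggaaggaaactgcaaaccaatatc
NPY1R and NPY5R, 10 repeats, plus strand, chr4:164366691-164366810: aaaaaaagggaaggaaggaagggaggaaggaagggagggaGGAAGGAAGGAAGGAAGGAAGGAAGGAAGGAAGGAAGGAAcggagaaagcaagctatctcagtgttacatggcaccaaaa

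The run of *CCK* lay 342 bases upstream of its start site, and 0.107% of 26095 tested genes with a start site had a run as near. The run of *APELA* lay 3777 bases upstream of its start, as near as in 2.58% of tested genes. The other 6 genes had their nearest run farther away. It was 25485 bases downstream of the start of *GRP*, a distance reached by 18.6% of tested genes, and 31741 bases downstream for *NPY*, with 4 repeats. *CALCA* had a run of 16 repeats at 37348 bases and *CALCB* a run of 5 repeats at 43150 bases. The run shared by *NPY1R* and *NPY5R* was 112983 and 101687 bases from their starts, which is beyond the median distance of 87252 bases over tested genes. In all, 2 of the 8 genes had a run within 10000 bases, against 7.22% of tested genes, and 6 of 8 had one within 100000 bases, against 54.6%.

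Single GGAA or TTCC words were counted in the 250 bases upstream of RefSeq start sites (GRCh38.p14), of which 9 belong to 7 of the 8 genes. *NPY1R* and *CALCA* each had 6 such words, a number reached by 9.14% of 35116 promoters. *GRP* and the downstream start of *CCK* had 5, *NPY* had 3, *APELA* had 2, the 2 starts of *NPY5R* had 3 and 1, and the upstream start of *CCK* had 1. The median over all promoters was 3. A tandem GGAAGGAA or TTCCTTCC was found in none of the 9, and 3.06% of all promoters hold one. These counts are descriptions of the sequence and say nothing of binding.

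The first comparison, iLuc against iEF, asks what the depletion of endo-EF did to the 8 genes. All of them were called higher in iLuc cells, where 19.5% of all tested genes were called higher and 22.1% lower. Because this contrast was in view when the genes were listed, nothing is read from that count. The call of *CALCA* changed in 18 of 25 alternative fits, which included leaving out any library but replicate 2 of iLuc and replicate 2 of iEF. Their median log2 fold change was 3.87, against 0.04 over all genes tested.

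**Figure D1:**
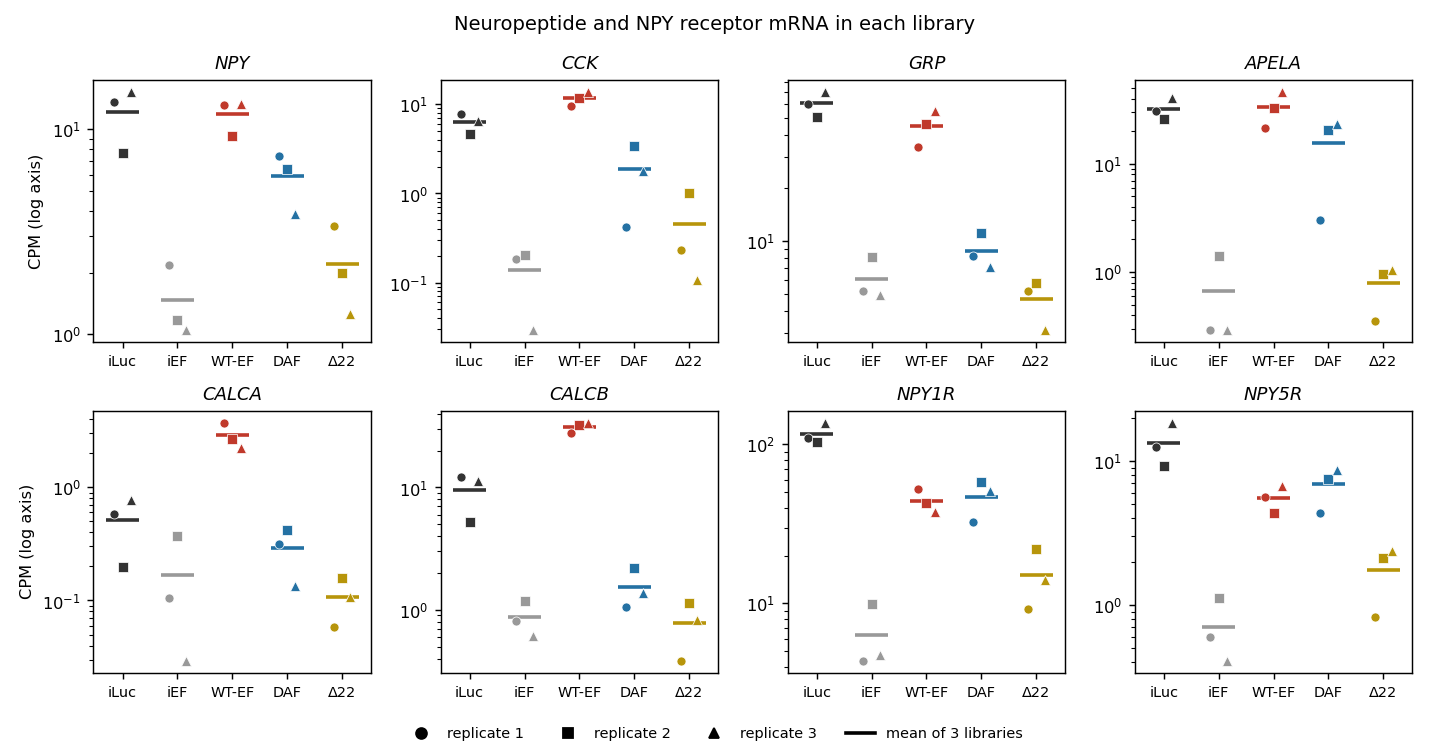
Level of each of the 8 genes in CPM (log axis, a separate scale for each gene) in the 3 libraries of iLuc, iEF, WT-EF, DAF and Δ22, with symbols for replicates 1 to 3 and a bar at the mean. The iEF and Δ22 means are the lowest 2 for each gene, WT-EF points lie above iLuc points for *CCK*, *CALCA* and *CALCB* and below them for *NPY1R* and *NPY5R*, and for *CALCA* the iLuc and iEF points overlap.

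*NPY* was at 13.6, 7.63 and 15.2 CPM in iLuc libraries and at 2.18, 1.18 and 1.05 CPM in iEF libraries. The groups did not overlap, and within the 3 sets of same-numbered libraries iLuc was 6.24, 6.46 and 14.5 times the iEF level. *NPY* returned to 13.2, 9.30 and 13.2 CPM with WT-EF, within the iLuc range, and to 7.42, 6.41 and 3.86 CPM with DAF, all below the lowest iLuc library. With Δ22 it was 3.37, 1.98 and 1.25 CPM and overlapped iEF. In order of their means, iLuc (12.1 ± 4.0, SD, n = 3) and WT-EF (11.9 ± 2.25) overlapped, DAF (5.89 ± 1.83) stood apart from both and from Δ22, and Δ22 (2.20 ± 1.08) overlapped iEF (1.47 ± 0.620).

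*NPY1R*, the Y1 receptor gene, stood at 110.1, 104 and 137 CPM in iLuc libraries and at 4.34, 9.98 and 4.74 CPM in iEF libraries, a fitted log2 difference of 4.29 (SE 0.30). It was 52.4, 42.5 and 37.8 CPM with WT-EF and 32.4, 57.6 and 50.7 CPM with DAF. Both forms therefore left *NPY1R* below every iLuc library, and their ranges overlapped each other. With Δ22 it was 9.23, 22 and 14.0 CPM, and only the lowest Δ22 library fell under the highest iEF library.

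*NPY5R*, the Y5 receptor gene beside it, was at 12.5, 9.29 and 18.6 CPM in iLuc and 0.604, 1.11 and 0.407 CPM in iEF libraries. It followed the same order as *NPY1R*, with 5.59, 4.39 and 6.76 CPM in WT-EF, 4.39, 7.54 and 8.75 CPM in DAF and 0.821, 2.11 and 2.36 CPM in Δ22 libraries. The highest DAF library was under the lowest iLuc library. The ratio of *NPY1R* to *NPY5R* counts ran from 5.59 to 11.6 over the 15 libraries with a median of 8.80, and their log2 CPM had a Pearson r of 0.978 over the 15 libraries. These points share library and depth, and how reads in the overlap of the pair were assigned is not given in the sources used here.

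*CCK* had 7, 6 and 1 counts in the iEF libraries (0.184, 0.202 and 0.0291 CPM) and 7.82, 4.68 and 6.57 CPM in iLuc libraries. Its fitted log2 difference of 5.58 (SE 0.71) therefore rests on a denominator of few counts. WT-EF brought *CCK* to 9.64, 11.9 and 13.9 CPM, each above the highest iLuc library. DAF gave 0.422, 3.40 and 1.81 CPM, a wide spread, with all 3 libraries below iLuc and above iEF. The Δ22 libraries at 0.234, 1.02 and 0.107 CPM overlapped both DAF and iEF.

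*APELA* showed the largest fitted drop on depletion of endo-EF among the 8 genes, 5.81 on the log2 scale (SE 0.57). The drop of *CCK*, 5.58 (SE 0.71), was within error of it. *APELA* was at 31.0, 25.8 and 40.2 CPM in iLuc and at 0.289, 1.42 and 0.291 CPM in iEF libraries. Its iEF libraries held 10 to 42 counts, and within sets iLuc was 18.2 to 138 times iEF. WT-EF restored 21.3, 32.8 and 46.5 CPM, a range that covered the iLuc range. The DAF libraries differed among themselves, with 3.06 CPM in replicate 1 and 20.7 and 23.4 CPM in replicates 2 and 3. All 3 were above iEF and Δ22, below iLuc, and overlapped WT-EF. Δ22 left *APELA* at 0.352, 0.965 and 1.04 CPM, inside the iEF range.

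*GRP* was at 59.9, 50.4 and 70.1 CPM in iLuc, 5.23, 8.06 and 4.94 CPM in iEF and 34.3, 46.1 and 54.2 CPM in WT-EF libraries. Here WT-EF overlapped iLuc only by its highest library. DAF left *GRP* at 8.22, 11.1 and 7.08 CPM, which overlapped iEF, and Δ22 left it at 5.19, 5.79 and 3.11 CPM, which also overlapped iEF. In set 2 the DAF level was 1.37 times iEF, and in sets 1 and 3 it was 1.57 and 1.43 times iEF.

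The calcitonin-family genes differed from the rest in that WT-EF took them far above the iLuc level. *CALCB* was at 12.3, 5.19 and 11.3 CPM in iLuc, 0.815, 1.18 and 0.611 CPM in iEF and 27.9, 32.1 and 33.9 CPM in WT-EF libraries. DAF (1.05, 2.22 and 1.37 CPM) and Δ22 (0.381, 1.15 and 0.822 CPM) both overlapped iEF. *CALCB* was thus the gene for which WT-EF and DAF differed most, by 4.33 on the log2 scale (SE 0.38).

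In CPM per kilobase of transcript, *CALCA* had the lowest mean level of the 8 in iLuc, DAF and Δ22 cells, *CCK* in iEF and *NPY5R* in WT-EF cells. *CALCA* had 19, 7 and 26 counts in iLuc libraries (0.581, 0.196 and 0.776 CPM) and 4, 11 and 1 counts in iEF libraries (0.105, 0.371 and 0.0291 CPM), and the groups overlapped: in set 2 iLuc was 0.529 times iEF. Against that, its 3 WT-EF libraries at 3.74, 2.67 and 2.24 CPM were above all others. DAF gave 0.316, 0.422 and 0.134 CPM and Δ22 0.0586, 0.156 and 0.107 CPM. The ratio of *CALCB* to *CALCA* counts ran from 3.18 to 26.4 with a median of 7.75. Counts per gene do not separate the calcitonin from the CGRP transcripts of *CALCA*.

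Levels were also set against transcript length, to compare genes with each other. On the scale of CPM per kilobase of the canonical transcript, *GRP* was highest in iLuc cells at 70.1 ± 11.5 (SD, n = 3), followed by *NPY1R* at 42.4 ± 6.44, *NPY* at 21.9 ± 7.21 and *APELA* at 13.3 ± 2.99. *CALCB* (9.16 ± 3.66), *NPY5R* (7.12 ± 2.49) and *CCK* (4.23 ± 1.05) came next, and *CALCA* was last at 0.616 ± 0.351. From *NPY* down to *CCK*, each gene's range overlapped that of its neighbour in this order, whereas *GRP*, *NPY1R* and *CALCA* stood apart. With WT-EF the order of the leading genes was *GRP* (52.3 ± 11.7), *CALCB* (30.0 ± 2.95), *NPY* (21.4 ± 4.05) and *NPY1R* (16.0 ± 2.69). With DAF it was *NPY1R* (17.0 ± 4.71), *NPY* (10.6 ± 3.31) and *GRP* (10.2 ± 2.39), whose ranges overlapped.

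**Figure D2:**
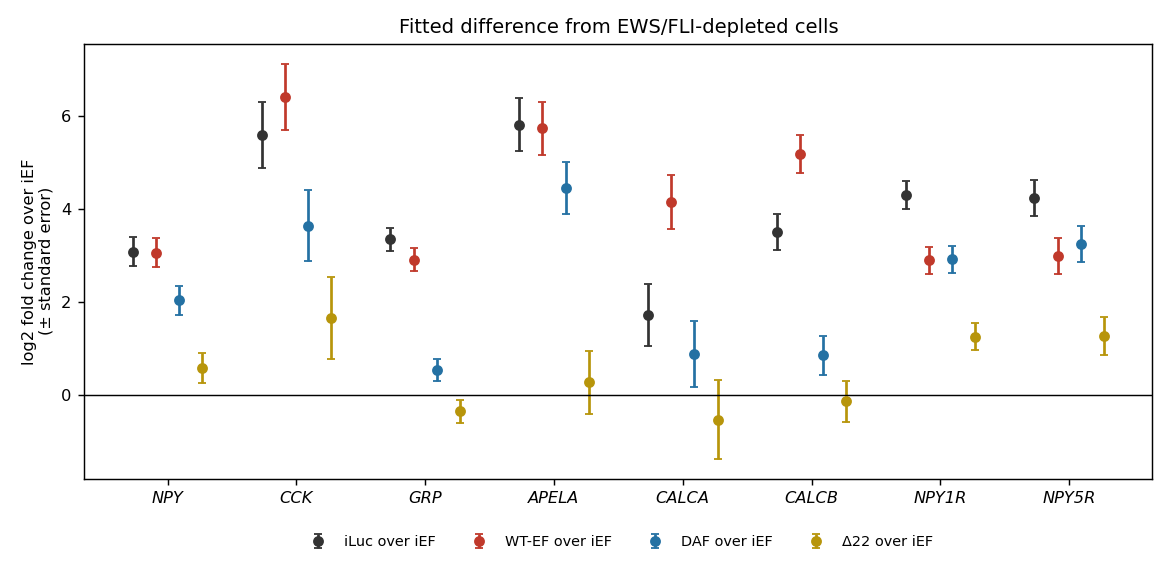
Fitted log2 fold change over iEF, with its standard error as bars, for iLuc, WT-EF, DAF and Δ22 at each of the 8 genes. The DAF points of *NPY1R* and *NPY5R* lie beside the WT-EF points, those of *CCK*, *NPY* and *APELA* lie between WT-EF and 0, those of *GRP*, *CALCA* and *CALCB* lie near 1 or below, and the Δ22 points run from -0.53 to 1.66.

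The comparisons of each rescued condition with iEF ask how much of the endo-EF state a construct restored. They share the same 3 iEF libraries, so their values are given side by side. WT-EF was called higher than iEF at all 8 genes, with 12.9% of tested genes called higher, and its log2 fold changes ran from 2.90 at *NPY1R* and *GRP* to 6.41 at *CCK* (SE 0.71). DAF was called higher at 5 of the 8, with 5.00% of tested genes called higher and 6.19% lower. These were *APELA* (4.45, SE 0.56), *CCK* (3.63, SE 0.76), *NPY5R* (3.25, SE 0.38), *NPY1R* (2.92, SE 0.29) and *NPY* (2.04, SE 0.31). The other DAF values were 0.88 for *CALCA* (SE 0.71), 0.85 for *CALCB* (SE 0.42) and 0.54 for *GRP* (SE 0.24). Δ22 was called higher at 1 of the 8, *NPY1R* (1.25, SE 0.28), with 0.472% of tested genes called higher. That call on *NPY1R* was lost without the replicate block, with a mean count of at least 10 as the filter, and in fits without replicate 1, 2 or 3 of DAF, 2 or 3 of Δ22, 1 or 3 of iEF, or 1 of iLuc. The Δ22 value of *NPY5R*, 1.27 (SE 0.40), was as large with a wider error. Over all tested genes the median log2 fold change was between -0.01 and 0.01 for these 3 comparisons, and over the 8 genes it was 3.61 for WT-EF, 2.48 for DAF and 0.43 for Δ22.

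WT-EF was then set directly against iLuc, which compares the rescue cDNA with endo-EF. Among the 8 genes 2 were called higher with WT-EF, *CALCA* by 2.43 on the log2 scale (SE 0.49) and *CALCB* by 1.68 (SE 0.32), and 2 were called lower, *NPY1R* by -1.39 (SE 0.26) and *NPY5R* by -1.25 (SE 0.32). In this comparison 10.7% of tested genes were called higher and 9.03% lower, 19.7% together. The other values were 0.83 for *CCK* (SE 0.48), -0.02 for *NPY* (SE 0.27), -0.08 for *APELA* (SE 0.41) and -0.44 for *GRP* (SE 0.22). The call of *NPY5R* was lost without replicate 1 or 3 of iLuc or replicate 2 of WT-EF, and the count of 4 fell to 2 when replicate 1 of every condition was left out.

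**Figure D3:**
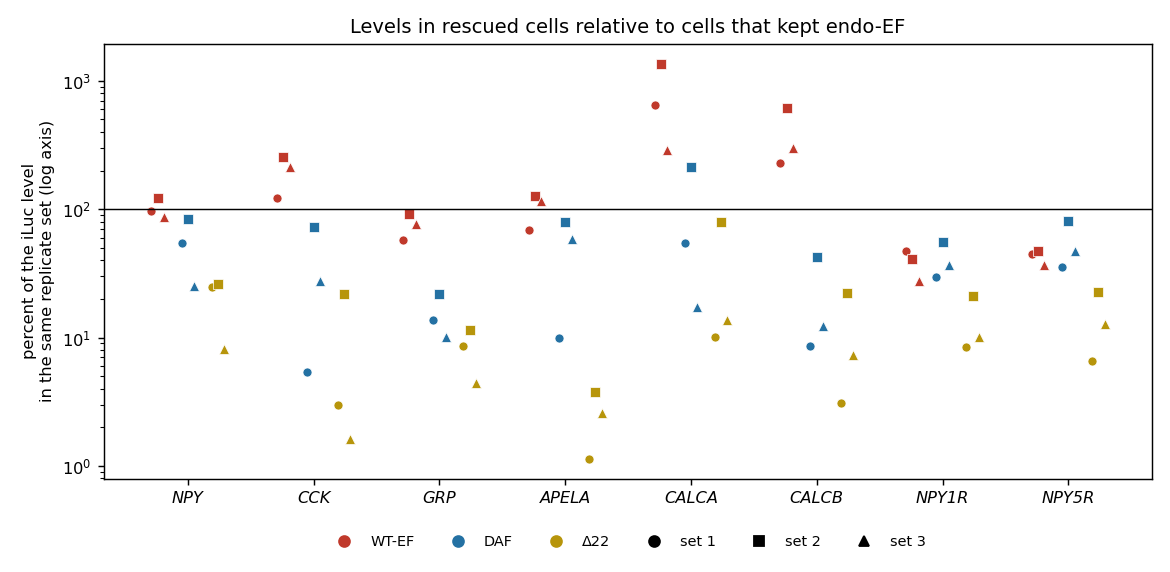
Level of each gene in WT-EF, DAF and Δ22 libraries as a percent of the iLuc library of the same number (log axis), with symbols for sets 1 to 3 and a line at 100. WT-EF points lie above the line in every set for *CCK*, *CALCA* and *CALCB* and below it in every set for *NPY1R*, *NPY5R* and *GRP*.

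Expressed as a percent of the iLuc library of the same number, WT-EF restored *NPY* to 102 ± 18.1 (SD, n = 3) and *APELA* to 104 ± 30.8. *GRP* came to 75.3 ± 17.2, *NPY5R* to 42.8 ± 5.66 and *NPY1R* to 38.7 ± 10.2 percent. WT-EF overshot at *CCK* (196 ± 66.7), *CALCB* (382 ± 207) and *CALCA* (764 ± 545 percent), the last against iLuc libraries of 7 to 26 counts. DAF reached similar percents at the receptors, 40.6 ± 13.4 for *NPY1R* and 54.5 ± 23.9 for *NPY5R*. For *NPY* it reached 54.6 ± 29.3, for *APELA* 49.3 ± 35.9 and for *CCK* 35.2 ± 34.3 percent, with a spread nearly as large as the value at *CCK*. *CALCB* and *GRP* stayed at 21.2 ± 18.7 and 15.2 ± 6.06 percent. The DAF percent of *CALCA* was the highest and most variable, 95.6 ± 105, with 54.5, 215 and 17.3 percent in the 3 sets. Δ22 ranged from 2.48 percent at *APELA* to 34.5 percent at *CALCA*. Replicate 2 was the lowest iLuc library at all 8 genes and the highest iEF library at 7 of 8, and both enter the percents and folds of set 2.

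WT-EF and DAF differ by the mutated tyrosines of the EWS domain. They also differed in *FLI1* RNA, at 16.0 to 18.7 CPM in WT-EF and 22.1 to 27.3 CPM in DAF libraries. The form of the construct and the level of *FLI1* RNA cannot be told apart in this comparison. WT-EF was called higher at 6 of the 8 genes, with 12.4% of tested genes called higher and 16.1% lower. The 6 were *CALCB* (4.33), *CALCA* (3.27, SE 0.53), *CCK* (2.78, SE 0.52), *GRP* (2.36, SE 0.24), *APELA* (1.28, SE 0.43) and *NPY* (1.02, SE 0.28). The call of *APELA* changed in 9 of 25 alternative fits, among them those without replicate 1 of iEF or DAF or any 1 of the WT-EF libraries, and that of *NPY* without replicate 3 of WT-EF or replicate 1 or 3 of DAF. At the receptors the differences were -0.02 for *NPY1R* (SE 0.26) and -0.26 for *NPY5R* (SE 0.32). DAF in turn was called higher than Δ22 at 4 genes, with 0.948% of tested genes called higher and 1.33% in either direction: *APELA* by 4.18 (SE 0.54), *NPY5R* by 1.98 (SE 0.34), *NPY1R* by 1.66 (SE 0.27) and *NPY* by 1.45 (SE 0.30). *CCK* had a like difference of 1.98 with a wider error (SE 0.62), and *CALCA*, *CALCB* and *GRP* had 1.41 (SE 0.77), 0.99 (SE 0.42) and 0.89 (SE 0.24). The call of *NPY* was lost without replicate 1 or 2 of DAF or any 1 of the Δ22 libraries, and that of *NPY5R* without replicate 2 or 3 of DAF or replicate 1 of Δ22. The count of 4 fell to 2 without replicate 2 of DAF or without replicate 1 of Δ22, and rose to 7 in a fit of the 6 libraries compared.

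The rest of the neuropeptide system was followed in 90 further genes listed by role, of which 66 passed the filter. These lists, too, were drawn up with earlier results of these libraries known. Calls and adjusted p-values for these genes come from the same edgeR fit and are given as a description of these libraries, not as independent support. Between iLuc and iEF cells, 15 of the 66 were called higher in iLuc and 24 lower, which is 59.1% against 41.6% of all tested genes. The corresponding counts were 11 higher and 20 lower for WT-EF (47.0% against 29.9%), 12 and 4 for DAF (24.2% against 11.2%), and for Δ22 2 were called, both higher (3.03% against 1.30%). Their median log2 fold change between iLuc and iEF was -0.32, whereas that of the 8 genes was 3.87.

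**Figure D4:**
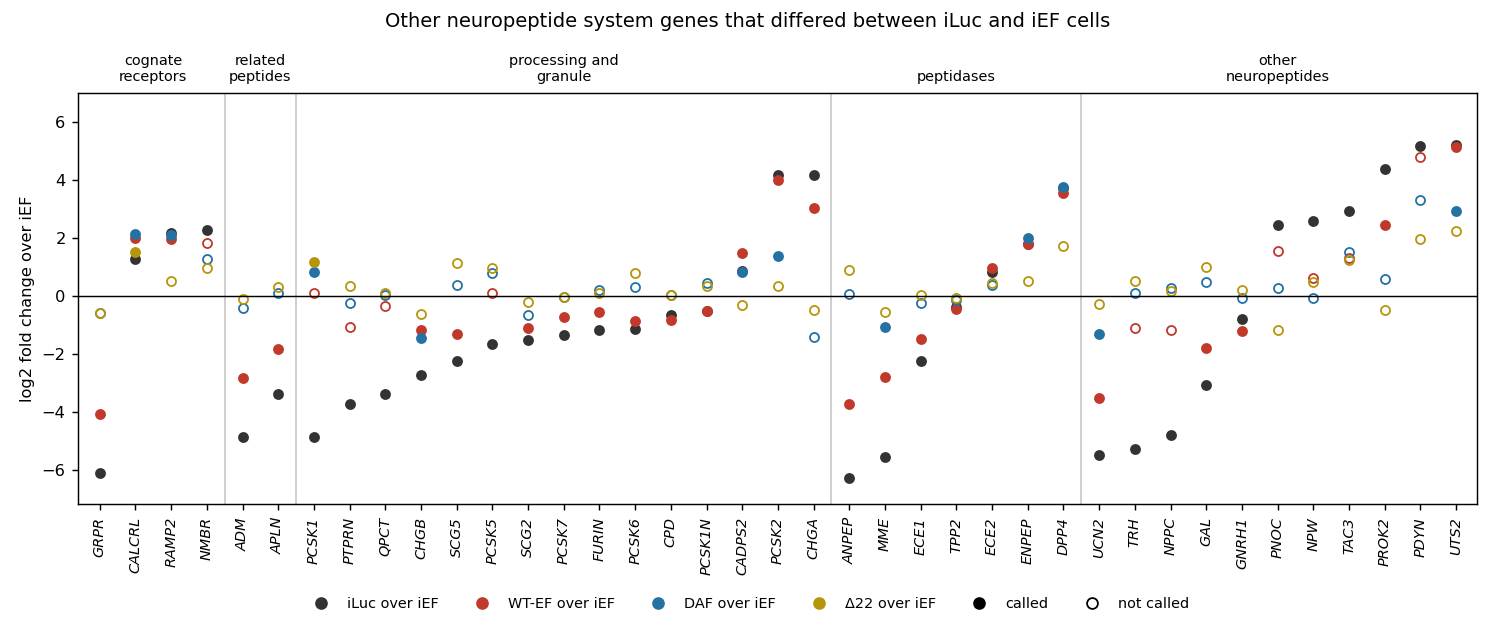
Log2 fold change over iEF of the other neuropeptide system genes called between iLuc and iEF, grouped by role, for iLuc, WT-EF, DAF and Δ22. Filled points passed an adjusted p of 0.05 and open points did not. *PCSK2* and *CHGA* lie high in iLuc and WT-EF, while *GRPR*, *ADM* and *ANPEP* lie low in both and near 0 in DAF and Δ22.

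Among the cognate receptors, 9 of 13 were tested, and 3 were called higher and 1 lower in iLuc cells. That is 44.4% of those tested, near the 41.6% of all tested genes, so nothing is read from this count. *GRPR*, the receptor of GRP, moved against its ligand, with 18.1 ± 3.85 CPM in iEF and 0.267 ± 0.0870 CPM in iLuc libraries (log2 fold change -6.13, edgeR adjusted p = 2.73e-09). WT-EF lowered it to 1.18 ± 0.941 CPM, whereas DAF and Δ22 libraries held 12.9 ± 5.88 and 12.2 ± 3.32 CPM. The difference of WT-EF from DAF was -3.51 (edgeR adjusted p = 1.35e-06). *CALCRL*, the receptor that pairs with RAMP1 to bind CGRP, was higher than iEF in iLuc (1.27, adjusted p = 0.00196), WT-EF (2.00), DAF (2.14) and Δ22 (1.51, adjusted p = 0.0174). The Δ22 call on *CALCRL* was lost without the replicate block, without any 1 of the iEF libraries, and without replicate 2 or 3 of Δ22 (log2 fold changes of 1.18 to 1.58). *RAMP2*, which pairs with the same receptor for adrenomedullin, rose as well, by 2.17 in iLuc. The CGRP partner gene *RAMP1* did not rise with *CALCRL* in WT-EF cells. It was at 6.68 ± 0.484 CPM in iEF, 7.80 ± 3.64 in iLuc and 3.74 ± 0.589 in WT-EF libraries. Each WT-EF library was below every iEF library. DAF and Δ22 libraries held 5.71 ± 0.811 and 5.81 ± 1.33 CPM of *RAMP1*. *APLNR*, the receptor of APELA, was at 0.226 ± 0.171 CPM in iLuc (3 to 14 counts) and 0.226 ± 0.0141 CPM in iEF libraries (7 to 8 counts). It was at 2.40 ± 0.961 CPM in WT-EF libraries, 3.41 above iLuc on the log2 scale (edgeR adjusted p = 5.36e-05), over a base of few counts. *CCKAR* was called higher than iEF in DAF cells (3.50), at 0.604 to 1.50 CPM and 18 to 57 counts, against 1 to 5 counts in iEF libraries. That call was lost when replicate 1 or 2 of every condition was left out.

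**Figure D5:**
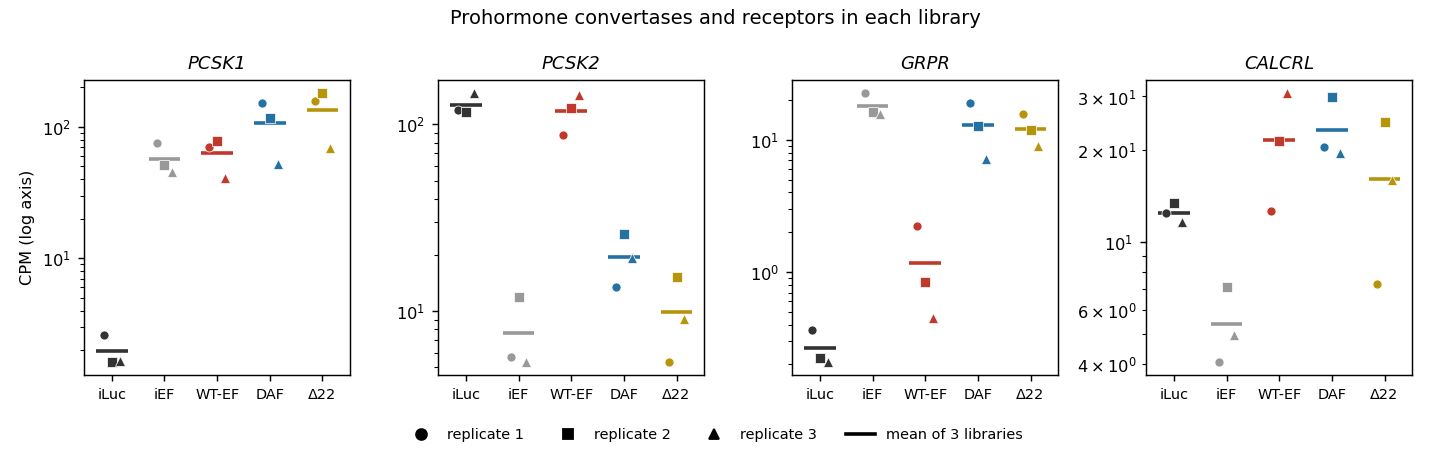
Levels in CPM (log axis, a separate scale for each gene) of the convertase genes *PCSK1* and *PCSK2* and the receptor genes *GRPR* and *CALCRL* in each library, with a bar at the mean of 3. *PCSK2* is high in iLuc and WT-EF only, *PCSK1* is low in iLuc only, and *GRPR* is low in iLuc and WT-EF.

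Of the convertase genes, *PCSK2* and *PCSK1* went opposite ways between iLuc and iEF cells, and the others listed had lower means in iLuc. In iLuc against iEF libraries, *FURIN* was at 44.4 against 102 CPM and *PCSK7* at 23.8 against 60.4 CPM. *PCSK6* was at 2.45 against 5.48 CPM and *PCSK5* at 0.228 against 0.738 CPM. *PCSK2*, which encodes the convertase PC2, was at 128 ± 16.9 CPM in iLuc and 7.63 ± 3.67 CPM in iEF libraries (log2 fold change 4.16, edgeR adjusted p = 2.08e-08), and WT-EF returned it to 118 ± 28.5 CPM. DAF raised it to 19.5 ± 6.16 CPM. *PCSK1*, which encodes PC1/3, was at 1.97 ± 0.574 CPM in iLuc and 57.3 ± 16.1 CPM in iEF libraries (-4.89, edgeR adjusted p = 2.99e-09). WT-EF left *PCSK1* at 62.9 ± 19.6 CPM, 4.99 above iLuc on the log2 scale (edgeR adjusted p = 8.08e-08), and DAF and Δ22 cells held 107 ± 50.6 and 135 ± 58.3 CPM. The calls of *PCSK1* over iEF were lost in fits without the replicate block and without replicate 1 or 2 of iEF, for DAF (0.81) also without replicate 1 or 2 of DAF and for Δ22 (1.16) also without replicate 2 of Δ22. The ratio of *PCSK2* to *PCSK1* counts consequently ran from 0.0343 to 89.5 over the libraries. For later steps, the amidating enzyme gene *PAM* was at 416 ± 24.3 CPM in iLuc and 419 ± 23.2 CPM in iEF libraries, and the carboxypeptidase gene *CPE* was at 86.3 ± 21.5 and 80.5 ± 14.4 CPM. The granule proteins diverged, with *CHGA* higher (4.17) and *CHGB* lower (-2.72) in iLuc than in iEF cells. Over the 21 processing and granule genes, 3 were called higher and 12 lower in iLuc cells, 71.4% against 41.6% of all tested genes.

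Related peptides and peptidases completed the lists. Of 5 related peptides tested, 2 were called, both lower in iLuc cells, which is 40% against 41.6% of all tested genes. The 2 were the adrenomedullin gene *ADM* (-4.87) and *APLN* (-3.38), which encodes apelin, the other ligand of the APELA receptor. *ADM* was at 135 ± 8.85 CPM in iEF, 4.70 ± 1.75 CPM in iLuc and 103 ± 27.4 CPM in DAF libraries. Of 8 peptidases, 3 were called higher and 4 lower in iLuc cells, 87.5% against 41.6% of all tested genes. *DPP4*, whose product trims the amino end of NPY, was higher in iLuc (3.72), WT-EF (3.53) and DAF (3.76) than in iEF cells. *ANPEP*, aminopeptidase N, was lower in iLuc cells (-6.30), and *MME*, the neprilysin gene, had 1 or 2 counts in each iLuc library against 79 to 92 in each iEF library. Among the other neuropeptides, 23 of 40 were tested, and 6 were called higher and 5 lower in iLuc cells. That is 47.8% against 41.6% of all tested genes. *UTS2*, the urotensin gene, was for example at 50.9 ± 14.5 CPM in iLuc against 1.64 ± 1.02 CPM in iEF libraries (5.21).

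The genes whose log2 CPM followed the 8 most closely over the 15 libraries were taken from those with a mean of at least 50 counts, and the correlations are descriptions over points that share libraries and depth. The nearest to *NPY1R* were *NPY5R* (Pearson r = 0.978), *VAV1* (0.972) and *PRKCB* (0.969), a kinase gene among the Ewing sarcoma markers. *APELA* was nearest to *APCDD1* (0.985), *GRP* to *ISL1* (0.985), *CALCB* to *CHN2* (0.978), *CCK* to *PCDH10* (0.973), *NPY* to *LINC02941* (0.951) and *CALCA* to *CDC37L1* (0.933). Among the 8 themselves, the lowest r was 0.555, between *CALCA* and *NPY1R*, and *CALCA* and *CALCB* reached 0.923.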

How the data were processed

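Paired-end RNA-seq reads of the 15 libraries were aligned to hg19 with STAR by the authors (version 2.5.1b in the submitters' processing notes) and counted per gene (htseq-count, intersection-strict), and the deposited counts are whole numbers with no normalization. The strand setting of the counting and the gene annotation are not given in the sources used here. A table that the authors adjusted for sets of replicates with ComBat, holding decimal values of signal per gene that are not scaled for depth, was deposited beside it and used only in 1 alternative. A deposited table of the authors' fold changes and p-values from DESeq2 was not used, and neither were 3 columns of other samples.

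Conditions and replicate numbers were taken from the sample labels. Counts were analysed in R 4.3.3 with edgeR 4.0.16: TMM normalization, genes with a mean of at least 1 count per library (28793), and a single quasi-likelihood model over the 15 libraries whose terms were condition and a block for replicate number, because the study adjusted sets of replicates for batch. Benjamini-Hochberg adjustment of p-values was made over all genes of a comparison, and a gene was called at an adjusted p under 0.05. The labels do not say whether replicates were separate cultures. The paper describes the replicates as repeated knockdown/rescue experiments, all in the same line, so p-values measure the spread between such repeats of 1 line. Replicates differed by more than counting noise (chi-square per gene 15.1 to 98.8 over 15 pairs). CPM used the TMM-scaled library sizes, and levels per kilobase used the canonical transcript of GENCODE. Percents of iLuc and folds within sets use libraries of the same number.

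The 8 genes, the 5 lists of 90 other genes and the markers were chosen with earlier results of these data known. The 8 genes are named in every condition, any gene of the lists may be named with its values, and pattern neighbours are the 3 genes with the highest Pearson correlation of log2 CPM. All 90 list genes and 22 of 23 markers were matched by symbol. Some markers are not reported here. GGAA runs were searched in GRCh37 and promoter words in the RefSeq promoter table. On simulated data for WT-EF over iEF with 28130 genes, 39 of 98 genes changed by a log2 of 1 and 70 of 98 changed by a log2 of 3 were called, with 4 unchanged genes called. Alternatives were no replicate block, DESeq2 1.42.0, its size factors, 2 other filters, fits of the 6 libraries compared, the ComBat table, and each library or replicate number left out.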

Additional observations from a re-analysis of the deposited data

How the results depend on the processing

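Each alternative fold change of the 8 genes was compared with its value in the main fit. Of 1400 such values, 1370 differed by less than the main standard error times the square root of 3. The other 30 moved by more, and 0 called values changed sign. Uncalled values near 0, such as those of *CALCA*, *CALCB* and *APELA* for Δ22 over iEF, took either sign. Among 8 genes, the counts called were 7 to 8 for iLuc over iEF, 8 for WT-EF over iEF, 4 to 6 for DAF over iEF and 4 to 6 for WT-EF over DAF when libraries or replicate numbers were left out. Other counts depended on the fit. For Δ22 over iEF, 1 of the 8 genes was called, against 0 without the replicate block, 0 with a mean of at least 10 counts, 2 with DESeq2 on the counts and on the ComBat table, 3 with no filter, and 0 to 1 without a library or replicate number. For DAF over Δ22, 4 were called, against 7 with no filter and 7 with the 6 libraries compared, and 2 to 5 without a library or replicate number. For WT-EF over iLuc, 4 were called, and 2 to 5 without a library or replicate number. Of the other genes, of which 66 were tested in the main fit, 2 were called for Δ22 over iEF. The count was 0 without the replicate block, 8 with DESeq2, and 15 with no filter, where more than 66 were tested. It was 6 with the 6 libraries compared, 5 with the ComBat table, and 0 to 8 without a library or replicate number. For DAF over Δ22, 5 were called, against 2 without the replicate block, 11 with no filter, 21 with the 6 libraries compared, 8 with the ComBat table and 2 to 9 without a library or replicate number. For DAF over iEF 16 were called, and 7 to 20 without a library or replicate number, the lowest without replicate 2 of every condition. For WT-EF over iLuc 22 were called, and 13 to 28. The share of all tested genes called under each alternative is not given here. Shifts in these counts therefore cannot be told apart from fits that call more or fewer genes of any kind. For single genes outside the 8 whose fold changes are given, 1137 of 1175 alternative values kept their direction and side of the cutoff, 24 lost the call, 14 gained it and 0 changed sign. The causes were not tested. Libraries of the same number deviated together in part: the correlation of their deviations from the condition mean was over 0.1 in 21 of 30 pairs. The median was 0.185. Over 60 pairs of other numbers it was -0.0842, which is not a separate baseline, because the deviations within a condition sum to 0. The labels' numbers thus mark a pairing only as the study's batch adjustment treats them. Removing the block changed no other count of the 8 genes by more than 1.5 times. At 1 to 11 counts, the iEF levels of *CCK* and *CALCA* limit the precision of their fold changes.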

Other observations

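Peptide genes outside the 8 moved in both directions. Galanin (*GAL*), a peptide of many neurons and endocrine cells, was at 4.66 ± 2.19 CPM (SD, n = 3) in iEF and 0.535 ± 0.173 CPM in iLuc libraries, a log2 fold change of -3.08. *PROK2*, which encodes a secreted prokineticin, was higher in iLuc than in iEF cells by 4.37 (edgeR adjusted p = 2.72e-05). *UTS2* was at 53.3 ± 22.1 CPM in WT-EF, 12.2 ± 6.17 CPM in DAF and 8.15 ± 6.53 CPM in Δ22 libraries. WT-EF was above DAF at *UTS2* by 2.20 on the log2 scale (edgeR adjusted p = 0.00281), and over 25 alternative fits the adjusted p stayed at or under 0.0231.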
